A study of Mus musculus with 9 samples.

Results

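The transcripts described here are those of the Toll-like receptors and the proteins that serve them at the cell surface and just beneath it: Cd14, Ly96, Tlr1, Tlr2, Tlr3, Tlr4, Tlr6, Tlr7, Myd88 and Ticam2. They were chosen by name, as receptors and adaptors that sense endotoxin and nucleic acids, with earlier results of these data known. Every probe set (a group of array probes for 1 transcript) whose single gene symbol was 1 of these 10 names was taken. This gave 15 probe sets for 9 genes, of 45037 probe sets and 18193 genes with a single symbol in all. No probe set was found by this rule for Ticam2, which is not analysed here.

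The RNA came from lung cell cultures labelled as type II cells, the surfactant-making cells of the alveolus, from ICR10 mice given as female and aged 2 months. Of the 9 arrays, 3 held cells of Nrf2+/+ mice (wild type), 3 held cells of Nrf2-/- mice (knockout) and 3 held cells of Nrf2-/- mice supplemented with GSH, the usual abbreviation of glutathione, with no dose or time in the labels. Nrf2 is the transcription factor that switches on antioxidant genes. Every culture was depleted of macrophages on antibody-coated plates and of fibroblasts by adherence, then grown for 5 days with keratinocyte growth factor. The design text speaks of 3 sets of isolated cells, but the labels tie no array to an animal or culture, so the p-values measure the spread between arrays and that spread may be technical.

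Toll-like receptors are membrane proteins of the innate immune system that recognise molecules typical of microbes. Tlr4, joined by its partner Ly96 (MD-2) and handed its ligand by Cd14, senses bacterial endotoxin. Tlr2 pairs with Tlr1 or Tlr6 to sense bacterial lipoproteins. Tlr3 and Tlr7 sit in endosomes and sense double-stranded and single-stranded RNA. Most of these receptors signal through the adaptor Myd88 towards NF-kB, while Tlr3, and Tlr4 from the endosome, signal through the adaptor TRIF (Ticam1). In the lung these genes are best known from macrophages and other myeloid cells.

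Nearly all of these transcripts were more abundant in knockout than in wild-type cells, and 6 of the 9 were called higher again with GSH. Between knockout and wild type 8 of the 9 genes rose, Cd14, Tlr1, Tlr2, Tlr3, Tlr4, Tlr6, Tlr7 and Myd88, and Ly96 did not pass the test. Over all probe sets tested in this comparison 29.1% were called, 14.6% as higher. Between knockout with and without GSH 6 of 9 rose, Cd14, Ly96, Tlr1, Tlr2, Tlr4 and Tlr7, where 35.4% of all probe sets were called and 18.4% were higher. This count was 3 without the set term, where Cd14, Ly96 and Tlr1 were not called, 3 by the fold rule of the design text, and 4 with the replicate number as a block or in set 2 alone. The count at the first step was 4 by that fold rule. Against wild type, all 9 were higher with GSH, where 44.7% of all probe sets were called and 22.5% were higher. None of the 9 was called lower in any of the 3 comparisons. Because the genes were chosen with earlier results known, the shares over all probe sets are a description and not a test. A gene is represented by the probe set with its highest mean signal, a change is a limma log2 difference with its standard error, and a call is a Benjamini-Hochberg adjusted p under 0.05 over 22519 probe sets. All 9 genes passed the filter on low signals. The comparisons share arrays, since the knockout arrays stand in both of the first and the wild-type arrays in 2 of the 3, so they are not independent of each other.

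The median log2 change of the 9 genes was 0.67 between knockout and wild type, 0.45 between knockout with GSH and knockout, and 1.24 between knockout with GSH and wild type. Over the 11620 genes tested the medians were 0.01, 0.01 and 0.00. The arrays of knockout and wild type did not overlap for 8 of the 9 genes, against 30.2% of all probe sets apart in either direction and 15.8% in this one. For knockout with GSH and knockout they did not overlap for 4 of 9, against 33.6% and 17.2%, and for knockout with GSH and wild type for 8 of 9, against 43.4% and 22.3%.

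**Figure D1:**
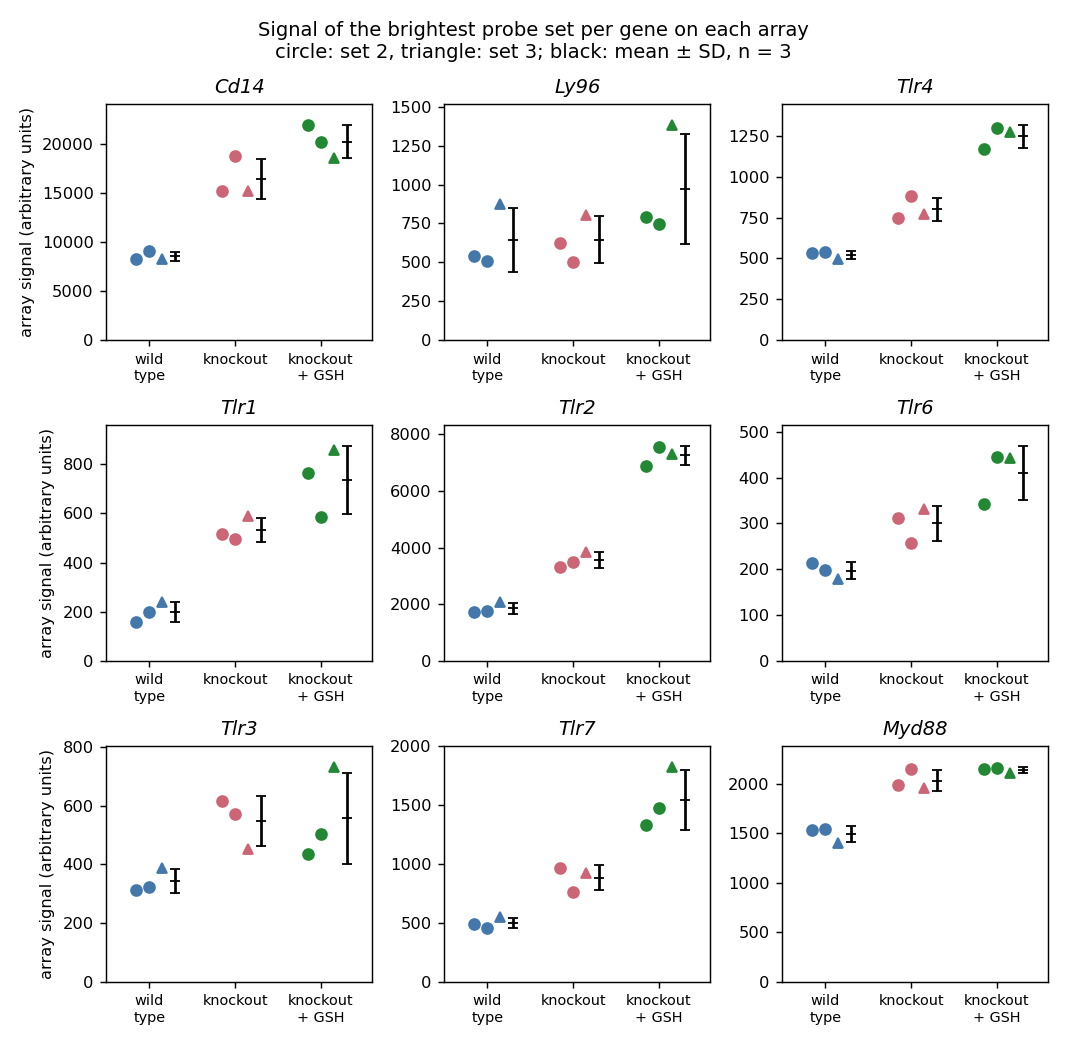
Array signal in arbitrary units of the brightest probe set of each of the 9 genes on every array, with 1 panel per gene and a vertical axis from 0. Circles are arrays of set 2, triangles arrays of set 3, and the black marks the mean ± SD of 3 arrays; Tlr2 rises at each step from 1853 to 3560.0 to 7255, while Ly96 rises with the set in each group.

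The labels were first checked against the targeted gene and against markers. Nfe2l2, which encodes Nrf2, read 3980.4 ± 167 (SD, n = 3) in wild type and fell to 59.9 ± 27.1 in knockout; with GSH it stood at 41.6 ± 7.20. A second Nfe2l2 probe set, below the filter, read 42.2 ± 8.32, 46.7 ± 19.0 and 147.9 ± 36.1, and in the fit without the filter it was higher with GSH than in knockout (limma adjusted p = 0.0066). The second number of the code in each sample title divides the arrays of every group into 2 of set 2 and 1 of set 3; no label says what the number means. The spiked control bioC differed with it, from 1362 to 1695 on set 2 arrays against 439 to 730.5 on set 3 arrays. The set is a term of the model. Sex-linked genes went against the labels, which give female mice throughout. Xist, which coats the inactive X chromosome, was at 157 ± 28.2 in wild type against 3203 ± 1248 in knockout, and the Y-linked gene Eif2s3y at 801 ± 121 against 9.27 ± 13.1. The Y-linked genes Kdm5d (311 ± 35.1 against 33.0 ± 12.9) and Uty (324 ± 31.6 against 59.5 ± 23.2) split in the same way. Genotype and this difference, which may be a difference in donor sex, therefore cannot be told apart in the comparisons with wild type. That holds for each of the 9 genes described here, not only for X-linked Tlr7. Sftpc, the surfactant protein that defines type II cells, did not exceed the control level on any of the 3 wild-type arrays (37.3 ± 10.3) and read 89.1 ± 48.7 in knockout cells, against 108 ± 30.3 with GSH. The dim Sftpa1 ran the same way, at 62.2 ± 22.6, 82.9 ± 15.2 and 92.9 ± 14.8 in the 3 groups. Other surfactant genes did not, and were above the control level on all arrays. Sftpb read 338 ± 101, 241 ± 99.9 and 356 ± 96.1 in the 3 groups, and Sftpd 448 ± 52.2, 218 ± 56.1 and 349 ± 37.1. The control level is the 95th percentile of the bacterial control probe sets of an array.

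Macrophage markers moved with these genes, and their part in the results was not tested. Of 25 listed macrophage markers 24 were measured and 23 passed the filter. This list, like the others below, was chosen with earlier results of these data known. Of these 20 were higher and 2 lower in knockout than in wild type (median log2 change 0.76). With GSH 14 were higher and 2 lower than without (median 0.48). Over all genes 16.7% were higher and 15.7% lower at the first step, and 19.7% and 19.8% with GSH. The medians over all genes were 0.01 at both steps. The summed signal of the macrophage markers ran from 74480.1 to 77122 in wild type, from 121491 to 140198 in knockout cells and from 160852 to 187006 with GSH. The groups did not overlap in this sum. Adgre1 (F4/80) read 4276 ± 606 in wild type, 10155 ± 899 in knockout cells and 13737 ± 181 with GSH, and Csf1r, the receptor for macrophage growth factor, 5818 ± 269, 9151 ± 2041 and 15125 ± 2346. The 2 markers that were lower in knockout were Siglecf and Itgax. Marco and Car4, on the same list, read higher in knockout. Marco was at 4236 ± 76.6 in wild type and 6750.0 ± 729 in knockout, and Car4 at 764 ± 49.1 and 1183 ± 110. Siglecf read 471 ± 102 in wild type and 133 ± 11.9 in knockout (-1.80), then 517 ± 129 with GSH, and Itgax 2071 ± 159, 914 ± 102 and 3387 ± 172 (-1.18 at the first step). Cd163 was at or below the control level on all arrays of wild type and of knockout with GSH. More cells of a type and more RNA per cell cannot be told apart in these bulk samples.

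Markers of other cell types were summed in the same way. The 8 lymphocyte markers summed to 467 to 649 in wild type and 531 to 665 in knockout, and to 565 to 649 with GSH; Cd3g and Nkg7 were at or below the control level on all arrays of every group. Dendritic cell markers summed to 508 to 549, 429 to 786 and 532 to 771 over 7 genes. Neutrophil and monocyte markers summed to 7617 to 8956 in wild type, 17388 to 20604 in knockout cells and 8727 to 9547 with GSH over 8 genes. Within this sum S100a8 read 1421 ± 307, 6028 ± 1478 and 6984 ± 423 in the 3 groups and Plac8 6278 ± 395, 12418 ± 469 and 1366 ± 72.1, while S100a9 was at or below the control level on all arrays of every group. Fibroblast markers summed to 117182 to 128441 in wild type, 140418 to 186252 in knockout cells and 81892 to 95352 with GSH over 15 genes. Much of the sum with GSH was Vim (21884 ± 766.5) and Fn1 (21634 ± 2728). Of the 14 fibroblast markers past the filter, 10 were higher and 1 lower in knockout than in wild type (median log2 change 0.40). With GSH 0 were higher and 12 lower than without (median -2.07). Type II cell markers summed to 13705 to 16415 in wild type, 9316 to 10279 in knockout cells and 19663 to 23364 with GSH over 13 genes. Much of the type II sum was the general epithelial gene Cdh1 (6335 ± 2110, 2575 ± 960.4 and 8601 ± 2997) and Epcam (2358 ± 40.4, 1356 ± 37.1 and 4189 ± 312). Of the 10 type II markers past the filter, 1 was called higher and 4 lower in knockout than in wild type. With GSH 7 were called higher and 0 lower than without. Over all genes 16.7% were higher and 15.7% lower at the first step, and 19.7% and 19.8% with GSH. Napsa, a protease of type II cells, rose from 191 ± 28.1 to 415 ± 26.4 at the first step, whereas Sftpd read 448 ± 52.2 and then 218 ± 56.1. Club cell markers summed to 10797 to 12805 in wild type over 7 genes, to 1143 to 1789 in knockout and to 3896 to 4265 with GSH. Most of the wild-type sum was Scgb1a1 (6725 ± 869) and Aldh1a1 (4367 ± 252), which read 281 ± 6.29 and 726 ± 181 in knockout. Only 3 of the 7 passed the filter, of which 2 were lower in knockout than in wild type and 1 was not called. Scgb3a2, Cyp2f2 and Muc5b were at or below the control level on all wild-type arrays. Type I cell markers summed to 16742 to 19165, 12425 to 15621 and 13898 to 15642 over 10 genes, and endothelial markers to 4400.5 to 5292, 2851 to 3444 and 2744 to 3425.5 over 10.

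**Figure D2:**
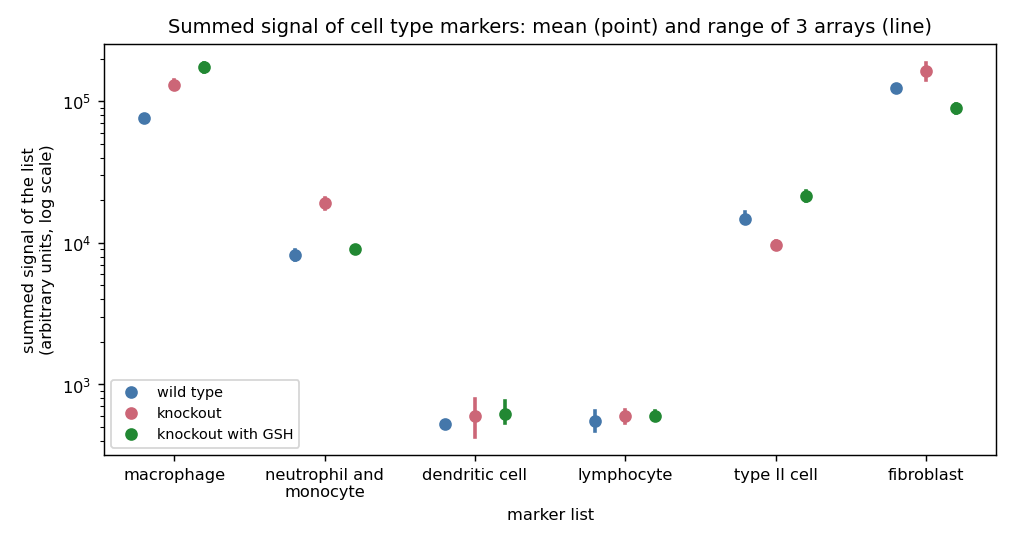
Summed array signal in arbitrary units, on a log axis, of 6 lists of cell type markers in wild type, knockout and knockout with GSH; points are means and lines the range of 3 arrays. The macrophage sums step up from 75925 to 129347 to 173528, whereas the fibroblast sum is lowest with GSH at 89096.

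Cd14, the glycoprotein that passes endotoxin to Tlr4, read 8196, 9056.1 and 8259.7 in wild type (replicates 3, 4 and 5). It read 15185.8, 18727.2 and 15175.1 in knockout (replicates 2, 3 and 4, in this order below too) and 21876.3, 20156.8 and 18484.9 with GSH. All 3 knockout arrays lay above all 3 wild-type arrays, while the lowest GSH array lay below the highest knockout array. The rise between wild type and knockout was 1.92-fold (log2 change 0.94 ± 0.08 SE, limma adjusted p = 8.1e-06). With GSH it rose by a further 0.31 ± 0.08 (limma adjusted p = 0.013), and 8 of the 9 pairs of arrays were higher. This second call was lost without knockout replicate 2 (limma adjusted p = 0.052), without knockout replicate 4 (0.056) and without GSH replicate 2 (0.051). It was also lost in set 2 alone, with a change of 0.32 (limma adjusted p = 0.073), and with the replicate number as a block, with a change of 0.31 (0.076).

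Ly96, the soluble partner that lets Tlr4 bind endotoxin, read 541.4, 505.8 and 877.7 in wild type, 626.3, 501.3 and 803.9 in knockout cells and 792.7, 746.1 and 1382.7 with GSH. In every group the array of set 3 was the highest, and the ranges of the groups overlapped. The change between knockout and wild type was 0.02 (95% interval -0.22 to 0.26, limma adjusted p = 0.90), and it was 0.10 in set 2 and -0.13 in set 3. With GSH Ly96 rose 1.48-fold (0.57 ± 0.11, limma adjusted p = 0.0017), by 0.46 in set 2 and by 0.78 in set 3. Without a term for the set this call was lost (limma adjusted p = 0.22), and it was also lost with the replicate number as a block, at the same change of 0.57 (0.055).

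Tlr4, the endotoxin receptor itself, read 531.1, 537.2 and 495.7 in wild type, 747.4, 882.1 and 775.3 in knockout cells and 1169.8, 1299.5 and 1277.8 with GSH. The groups followed each other without overlap at both steps. The rise was 0.62 ± 0.09 between wild type and knockout (limma adjusted p = 4.3e-04) and 0.64 ± 0.09 with GSH (limma adjusted p = 2.1e-04). Both were seen in set 2 (0.60 and 0.60) and in set 3 (0.65 and 0.72). A second Tlr4 probe set rose by 0.46 and 0.61 at the same steps. Another, dimmer one changed by 0.45 between wild type and knockout (limma adjusted p = 0.088, not called) and rose by 0.93 with GSH (0.0021). The fourth lay below the filter, with means of 29.3, 30.0 and 49.8, above the control level on 0, 1 and 1 of 3 arrays.

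Between knockout and wild type the log2 changes of the endotoxin receptor's parts were 0.94 for Cd14, 0.62 for Tlr4 and 0.02 for Ly96. The ratio of Cd14 to Tlr4 within an array increased by 0.32 on the log2 scale, with no overlap of the 3 arrays of each group. With GSH the same ratio decreased by 0.34, again without overlap. An exact two-sided permutation test gave p = 0.1 for each, the smallest that 3 arrays against 3 allow (adjusted p = 0.17 over 10 ratio comparisons). The ratio of Cd14 to Ly96 increased by 0.91 between wild type and knockout, also without overlap (exact permutation p = 0.1), and changed by -0.26 with GSH, with overlap (p = 0.7). The ratio of Tlr4 to Ly96 changed by 0.59 and 0.08 at these steps, with overlap at both (exact permutation p = 0.3 and 1).

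Tlr2, the subunit shared by the lipoprotein receptors, read 1714.9, 1773.7 and 2070 in wild type, 3318.2, 3501.7 and 3860.2 in knockout cells and 6896.8, 7551.9 and 7315.4 with GSH. No array of a group reached the range of the next. It rose 1.92-fold between wild type and knockout (0.94 ± 0.07, limma adjusted p = 1.6e-06) and 2.04-fold more with GSH (1.03 ± 0.07, limma adjusted p = 4.2e-07). Against wild type the total was 3.93-fold, the largest of the 9 genes. The changes were 0.97 and 1.08 in set 2 and 0.90 and 0.92 in set 3.

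Tlr1, the partner of Tlr2 for triacylated lipoproteins, read 156.1, 198.3 and 239.8 in wild type, 515.7, 496.8 and 588.5 in knockout cells and 764.5, 585.3 and 857.6 with GSH. The wild-type arrays lay far below the others, while 1 GSH array fell within the knockout range. Its rise between wild type and knockout, 2.73-fold (1.45 ± 0.14, limma adjusted p = 1.4e-05), was the largest of the 9 genes at that step. With GSH it rose by 0.45 ± 0.14 (limma adjusted p = 0.025), a call that was lost without knockout replicate 3 (0.052) or 4 (0.11), without GSH replicate 2 (0.0996) or 4 (0.082), and in set 2 alone (0.15). The changes were 1.52 and 0.40 in set 2 and 1.30 and 0.54 in set 3.

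Tlr6, the partner of Tlr2 for diacylated lipoproteins, is encoded beside Tlr1 on chromosome 5. It read 214.1, 199.3 and 178.1 in wild type, 311, 257.6 and 332.6 in knockout cells and 341.7, 444.9 and 443.2 with GSH. No ranges overlapped. The rise between wild type and knockout was 0.60 ± 0.16 (limma adjusted p = 0.016). It was lost without knockout replicate 2 (0.052) or 4 (0.079), without wild type replicate 5 (0.087), in set 2 alone (0.14) and with the replicate number as a block (0.11). The change with GSH was 0.45 ± 0.16 (95% interval 0.09 to 0.80) and narrowly missed the threshold (limma adjusted p = 0.051). It passed with quantile normalisation (0.044), with no intensity trend (0.049), without GSH replicate 2 (0.025) and without wild type replicate 5 (0.042).

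Tlr2 was set against its partners within each array. The ratio of Tlr2 to Tlr1 decreased by 0.50 on the log2 scale between wild type and knockout and increased by 0.58 with GSH. The arrays of the groups did not overlap at either step (exact two-sided permutation p = 0.1 each, adjusted p = 0.17 over 10 ratio comparisons). The ratio of Tlr2 to Tlr6 changed by 0.34 between wild type and knockout, with overlap (exact permutation p = 0.3), and increased by 0.58 with GSH without overlap (exact permutation p = 0.1).

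**Figure D3:**
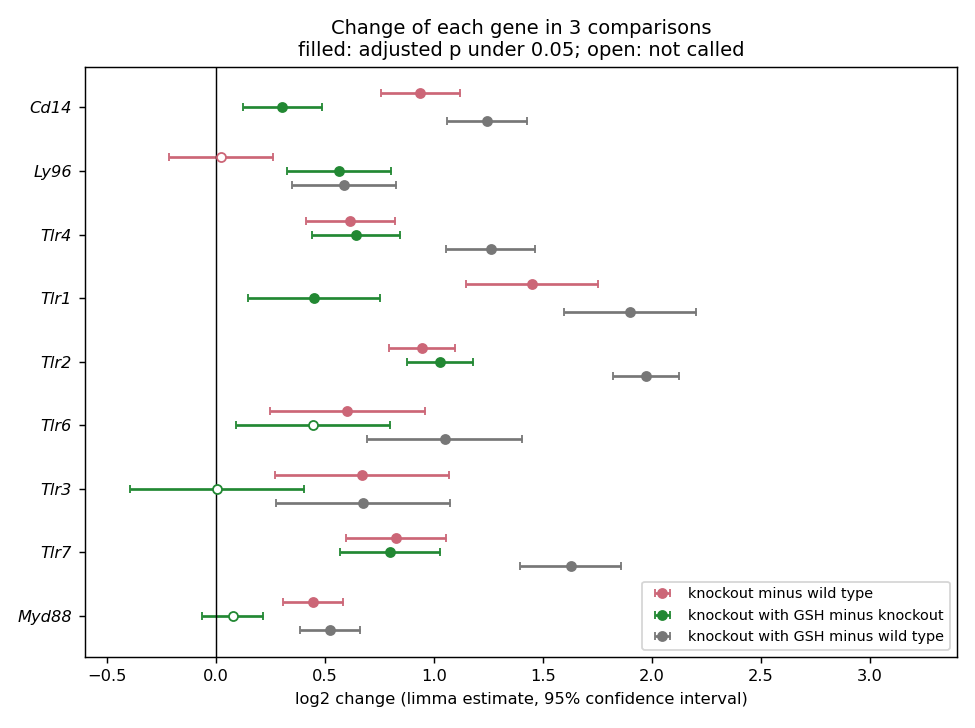
Log2 change of the brightest probe set of each gene, as the limma estimate with its 95% confidence interval, in the 3 comparisons; filled points have an adjusted p under 0.05. Tlr1 has the largest change between knockout and wild type (1.45) and Tlr2 the largest between knockout with GSH and knockout (1.03), while the interval of Ly96 for the first and those of Tlr3 and Myd88 for the second include 0.

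Tlr3, the endosomal sensor of double-stranded RNA, had 2 probe sets. By the first it read 313.7, 323.1 and 388.5 in wild type, 615.5, 571.1 and 450.9 in knockout cells and 435.5, 502.5 and 731.2 with GSH. By the second it read 292.6, 315.3 and 401.2, then 351.8, 458.8 and 625.6, then 548.2, 520.9 and 644.5. The probe sets ordered the knockout arrays in opposite ways, replicate 2 being the highest by the first and the lowest by the second. Both were called higher in knockout than in wild type, by 0.67 ± 0.18 (limma adjusted p = 0.017) and 0.48 ± 0.13 (0.017).

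The Tlr3 call was among the less stable. For the first probe set it was lost without wild type replicate 3 (limma adjusted p = 0.058) or 4 (0.053), without knockout replicate 2 (0.070) or 3 (0.062), and with the replicate number as a block, where the change was 0.80 (0.066). The change was 0.90 in set 2 and 0.21 in set 3. For the second it was lost in set 2 alone (0.12), without wild type replicate 3 or 5 (0.060 and 0.061) and without knockout replicate 3 or 4 (0.059 and 0.094). Between knockout with and without GSH the first probe set changed by 0.00 (95% interval -0.39 to 0.40) and the second by 0.29 (0.00 to 0.57, limma adjusted p = 0.11). The first had opposite signs in the sets, -0.34 in set 2 and 0.70 in set 3. Against wild type Tlr3 was higher with GSH by 0.67 and 0.77. Without GSH replicate 4 the first of these was 0.44 and not called (limma adjusted p = 0.071).

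Tlr7, the endosomal sensor of single-stranded RNA, read 488.4, 456.4 and 545 in wild type, 962.2, 763.1 and 924.2 in knockout cells and 1331.6, 1474.5 and 1821.8 with GSH. The groups did not overlap at either step. It rose 1.77-fold between wild type and knockout (0.83 ± 0.10, limma adjusted p = 1.3e-04) and 1.74-fold with GSH (0.80 ± 0.10, limma adjusted p = 1.0e-04). The changes were 0.86 and 0.71 in set 2 and 0.76 and 0.98 in set 3. Tlr7 lies on the X chromosome, and Xist differed between wild type and knockout as given above, so that step cannot be told apart from the difference in sex-linked genes. At the GSH step Xist was at 3203 ± 1248 without and 3510.0 ± 1112 with GSH.

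The other 2 Tlr7 probe sets lay below the filter, with wild-type means of 62.3 and 69.0, though above the control level on all arrays. In a fit without the filter they rose with GSH over knockout, by 1.25 and 0.89 (limma adjusted p = 0.0066 and 0.046). Between knockout and wild type they changed by 0.28 and 0.61 and were not called (0.60 and 0.19).

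Myd88, the adaptor that most of these receptors share, read 1527.9, 1546.5 and 1396.4 in wild type, 1985.9, 2148.6 and 1954.8 in knockout cells and 2152.3, 2161.9 and 2108.7 with GSH. The knockout arrays lay above the wild-type arrays, and the GSH arrays overlapped with them. It rose 1.36-fold between wild type and knockout (0.45 ± 0.06, limma adjusted p = 3.1e-04), by 0.43 in set 2 and 0.48 in set 3. With GSH the change was 0.08 (95% interval -0.06 to 0.22, limma adjusted p = 0.38).

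The stretch just before the transcription start was looked at because these genes moved together. RefSeq windows (GRCm38.p6) of 5 of the genes were used, Tlr1, Tlr2, Tlr3, Tlr6 and Myd88. No window was found for Ly96, Tlr4 or Tlr7, and Cd14 was left out of the search. In the windows used, the 250 bases before the start were searched on both strands for 5 motifs. These were the NF-kB pattern (GGG, any 3 bases, TTCC), the interferon response pattern (GAAA, any 2 bases, GAAA), the AP-1 pattern TGANTCA, the core of the element bound by Nrf2, TGACNNNGC, and the PU.1 pattern GAGGAAG; the AP-1 and Nrf2 patterns can overlap. Among 32851 windows of the same length they were found in 4.65%, 2.98%, 6.75%, 10.2% and 10.6%. The motifs were chosen after the windows were seen, so the matches cannot be tested against these shares. All 5 genes searched were called higher at the first step, so matches cannot be set against genes that did not rise. The NF-kB or interferon pattern was found in 5 windows of 4 genes. For each of these 4 genes 1 window is shown here, 5′ to 3′ on the minus strand that carries each gene, with the matched letters in capitals.
Tlr2 chr3:83841609-83841858: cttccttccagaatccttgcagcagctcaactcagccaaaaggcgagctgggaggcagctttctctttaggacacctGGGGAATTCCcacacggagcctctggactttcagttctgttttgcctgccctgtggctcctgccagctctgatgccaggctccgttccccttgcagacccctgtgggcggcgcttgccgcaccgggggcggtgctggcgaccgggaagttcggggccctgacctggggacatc
Tlr3 chr8:45410381-45410630: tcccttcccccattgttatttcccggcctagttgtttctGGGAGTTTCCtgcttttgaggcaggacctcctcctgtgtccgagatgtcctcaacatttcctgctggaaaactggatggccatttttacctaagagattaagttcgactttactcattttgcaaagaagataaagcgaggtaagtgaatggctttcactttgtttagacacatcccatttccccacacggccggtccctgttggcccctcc
Tlr6 chr5:64959167-64959416: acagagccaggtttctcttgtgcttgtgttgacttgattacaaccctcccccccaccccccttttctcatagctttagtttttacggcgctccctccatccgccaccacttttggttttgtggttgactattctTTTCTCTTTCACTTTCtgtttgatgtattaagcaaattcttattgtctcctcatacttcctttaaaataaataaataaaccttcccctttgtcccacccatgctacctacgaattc
Myd88 chr9:119340019-119340268: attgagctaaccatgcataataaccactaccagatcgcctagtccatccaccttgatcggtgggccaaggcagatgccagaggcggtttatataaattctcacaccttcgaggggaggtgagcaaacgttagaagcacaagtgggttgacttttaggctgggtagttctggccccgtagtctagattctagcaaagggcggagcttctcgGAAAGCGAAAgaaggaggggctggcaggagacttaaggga
The Tlr2 window holds the NF-kB pattern at -173 to -164 from the start, and the Tlr3 window at -211 to -202. The Tlr6 window holds 2 overlapping matches to the interferon pattern on the opposite strand, at -116 to -107 and -110 to -101, and the Myd88 window 1 at -40 to -31. A second Tlr6 window, not shown, holds the NF-kB pattern at -99 to -90, and 1 of 2 Tlr1 windows the PU.1 pattern. The AP-1 and Nrf2 patterns were not matched in these windows. A match describes letters only and says nothing of binding in these cells.

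Other genes of the pathway were described by lists. These were chosen with earlier results of these data known, so the shares over all genes beside their counts are no test. Of 18 other Toll-like receptors and accessory proteins 17 were measured and 16 passed the filter, of which 11 rose and 0 fell between wild type and knockout (median 0.73, against 0.01 over all genes, where 16.7% rose). Tlr8, an X-linked RNA sensor, rose from 266.5 ± 20.6 to 762 ± 281 (1.44) and reached 1719 ± 161 with GSH (a further 1.24). Nrros, a chaperone-like regulator of Toll-like receptors, rose by 1.27, and Ly86 (MD-1), which pairs with Cd180, by 1.11. Unc93b1, which carries endosomal receptors such as Tlr7 to their compartment, read 943 ± 169, 1970.1 ± 390 and 3199.5 ± 753 in the 3 groups. Lbp, the plasma protein that delivers endotoxin to Cd14, was at 157 ± 3.86 in wild type, rose to 494 ± 28.2 in knockout and fell to 62.4 ± 29.2 with GSH, where 2 of 3 arrays lay above the control level. With GSH 6 of the 16 rose and 2 fell (median 0.21), where 19.7% of all genes rose and 19.8% fell. Tlr5 and Tlr9 were not called in any comparison, with wild-type means of 286 and 129.

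Downstream of Myd88, 19 of 22 listed genes were measured and passed the filter. Between wild type and knockout 3 rose and 2 fell (median -0.03). Over all genes 16.7% rose and 15.7% fell at that step, so these 2 counts are no more than the background. With GSH 10 rose and 0 fell (median 0.31, against 0.01 over all genes, where 19.7% rose). Btk, a kinase of myeloid and B cells, rose at both steps, by 0.99 and 0.66. Irf5, a transcription factor that Myd88 activates, rose by 0.53 and 0.77. Map3k8, the kinase that links these receptors to ERK, rose by 0.86 at the first step. Mapk8 (JNK1) fell by 0.43 and rose by 0.37. Rel, an NF-kB subunit of immune cells, was higher with GSH than in wild type by 1.12.

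On the TRIF side, 10 of 12 listed genes were measured and passed the filter, of which 5 rose and 0 fell between wild type and knockout (median 0.30) and 1 rose and 0 fell with GSH (median 0.16). Over all genes 16.7% rose and 15.7% fell at the first step, and 19.7% rose and 19.8% fell at the second, so 1 of 10 with GSH is no more than the background. Irf7, the interferon regulatory factor that amplifies type I interferon, rose from 904 ± 304 to 2013.5 ± 341 (1.19). Ikbke, a kinase that activates such factors, rose by 0.92 and by a further 0.82 with GSH. Ticam1, which encodes TRIF, changed by -0.29 with GSH and was not called (limma adjusted p = 0.15).

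Of 21 listed genes that restrain the pathway 18 were measured and 17 passed, of which 9 rose and 2 fell between wild type and knockout (median 0.26) and 11 rose and 0 fell with GSH (median 0.36). Against the shares over all genes (16.7% and 15.7%, then 19.7% and 19.8%), the 2 of 17 that fell are near the background. Irak3, a kinase-like protein of macrophages that blocks signalling from Myd88, rose from 955 ± 109 to 2365 ± 365 (1.30, limma adjusted p = 6.3e-08) and to 3946 ± 535 with GSH (0.74). Atf3, a repressor of inflammatory genes, rose by 0.79 and 0.53. Socs3, a brake on cytokine signalling, rose by 0.83 at the first step. Tnfaip3 (A20), which removes ubiquitin from NF-kB signalling proteins, rose by 0.76 with GSH. Dusp1, a phosphatase that switches off MAP kinases, fell by 0.23 at the first step and rose by 0.83 with GSH.

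Cytosolic sensors work apart from Tlr3 and Tlr7. The list holds sensors of nucleic acids and their adaptors, and also Nod1, which senses bacterial peptidoglycan, and Nlrp3, an inflammasome sensor. Of 15 listed 14 were measured and 13 passed, of which 9 rose and 0 fell between wild type and knockout (median 0.90) and 3 rose and 2 fell with GSH (median 0.18); the difference between the steps was not tested. The counts with GSH are near the shares over all genes, 19.7% and 19.8%, while 16.7% rose at the first step. The 2 that fell were Zbp1 and Nod1 (-0.44). Zbp1, a sensor of Z-form nucleic acids, rose from 352 ± 70.7 to 2081 ± 287 (2.58) and fell to 1013 ± 101 with GSH (-1.04). Ifih1 (MDA5), which detects long double-stranded RNA, rose by 1.26 and Oas1a by 1.36. Oas3, which like Oas1a makes the signal that activates RNase L, rose by 1.41 and by a further 0.97 with GSH.

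**Figure D4:**
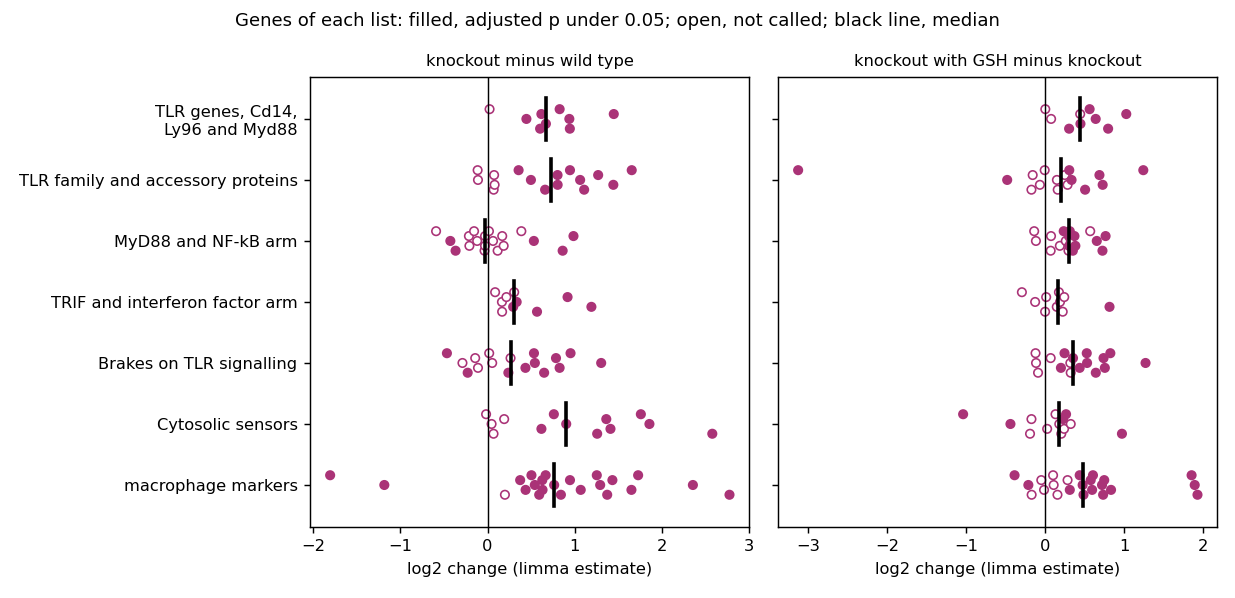
Log2 change (limma estimate) of each gene past the filter in the 9 genes described here, 5 lists of related pathway genes and the macrophage markers, for knockout minus wild type on the left and knockout with GSH minus knockout on the right; filled points have an adjusted p under 0.05 and the black line is the median. At the first step the medians of the 9 genes (0.67), of other Toll-like receptors and accessory proteins (0.73) and of macrophage markers (0.76) lie close together, while that of genes downstream of Myd88 is -0.03.

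Genes whose log2 signal followed these most closely over the 9 arrays were found by Pearson correlation among 11619 other genes, as a description, since the arrays share their groups. For Tlr2 they were Ccr1, a chemokine receptor of myeloid cells (r = 0.997), and Pilra (0.996). For Tlr4 they were Cd300lf (0.994) and Irf8, a transcription factor of myeloid cells (0.993). For Tlr7 they were the macrophage marker Car4 (0.995) and Pilrb1 (0.992), and for Tlr1 Gm6377 and Pik3ap1 (0.991 each). Cd14 was followed by Gcnt1 (0.994) and Dhrs1 (0.992), Tlr6 by Rgs2 and 8030453O22Rik (0.992 each), and Myd88 by Glrx, a glutaredoxin (0.995), and Txnip (0.991). Ly96 and Tlr3 had lower best values, with Commd7 (0.975) and Tent4b (0.973) for the first and Tmem140 (0.955) and Nktr (0.926) for the second.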

How the data were processed

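The authors deposited 1 intensity per probe set and array of the Affymetrix Mouse 430 2.0 array, on a linear scale. Their 2% trimmed mean was 500.0 on each of the arrays, which shows a scaling before deposit; the summarising software is not named in the labels. Of 45101 probe sets 64 controls were left out, 2 values at 0 were set to 0.1 and log2 was taken. Probe sets with a mean log2 below the median were left out, which kept 22519. Gene symbols were those of the platform annotation (34945 probe sets with 1 symbol, 932 with several, 9160 with none). A signal was above the control level where it exceeded the 95th percentile of 27 bacterial control probe sets, 43.4 to 82.9 by array. limma 3.58.1 (R 4.3.3) was fitted to all 9 arrays with terms for group and set and a trend on intensity. The residual degrees of freedom were 5 and the prior ones 6.08. The script was tested on simulated data. No label says that knockout arrays with and without GSH are paired by replicate number. Deviations from group means correlated at 0.32, 0.29 and 0.67 for the same numbers 2, 3 and 4. However, 2 crossed pairs within set 2 gave 0.24 and 0.39. Number 4 is the set 3 array of both groups, and the set was not removed, so these values cannot show a pairing. The members and lists were chosen with earlier results of these data known, and the motifs after the windows were seen. Named genes were all members, up to 3 genes per pathway list and comparison with the smallest p, and the 2 genes most correlated with each member; in addition some list genes not called were named after their values were seen. Alternatives were 2 other filters, quantile normalisation, a floor of 32, no set term, the replicate block, no trend, only the groups compared, set 2 alone, the mean of a gene's probe sets, the fold rule of the design text and leaving out each array.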

Additional observations from a re-analysis of the deposited data

How the results depend on the processing

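The count of genes called higher of 9 stayed within 1.5 times of 8, 6 and 9 (knockout against wild type, GSH against knockout, GSH against wild type) under most alternatives. The rule of the design text (at least 6 of 9 pairs at least 1.5-fold, unadjusted p under 0.05) gave 4 at the first step and 3 at the GSH step, and no set term gave 3 at the GSH step. Without it the call of Tlr3 was lost at the first step (limma adjusted p = 0.066), and those of Cd14, Ly96 and Tlr1 at the GSH step (0.068, 0.22 and 0.15). With the replicate number as a block the counts were 6, 4 and 9, and in set 2 alone 7, 4 and 9. Leaving out 1 array gave 6 to 8, 4 to 7 and 8 to 9. The Ly96 change between knockout and wild type, which was not called, ran from -0.10 to 0.12 with 1 array left out and turned to -0.01 without wild type replicate 4 and to -0.10 without knockout replicate 2. The Tlr3 change with GSH, also not called, turned to -0.0068 with quantile normalisation, -0.34 in set 2 alone, -0.28 without knockout replicate 4 and -0.23 without GSH replicate 4, within a range of -0.28 to 0.15 with 1 array left out. Over all probe sets the calls of 6560, 7964 and 10074 became 2774, 4574 and 6181 without the set term, 3253, 5824 and 6586 with the replicate block, and 2429, 3539 and 4695 by the rule of the design text. The number of arrays limits the precision, and 3 dim probe sets lay below the filter.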
